A study of Mus musculus with 5 samples.

Results

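The genes described here are 8 genes of antigen presentation on major histocompatibility complex (MHC) class II molecules and of B cells: H2-Aa, H2-Ab1, H2-Eb1, Cd74, Ciita, Cd79a, Cd79b and Ms4a1. They were taken by name from 52022 genes with a matched transcript, and all 8 were present and passed the count filter. Their RNA was measured in brown adipose tissue (BAT) of 3 ATF4 BKO mice and 2 WT mice, 1 library per mouse. ATF4 BKO mice carry Atf4 fl/fl alleles and a Ucp1-Cre transgene, which deletes ATF4 in thermogenic adipocytes. WT mice carry Atf4 fl/fl without Cre. All mice were on a C57Bl/6J background, described as male, 10 to 12 weeks old and fed ad libitum, and they spent 7 days at 30 °C and then 3 days at 4 °C. Cre driven by the Ucp1 promoter acts in thermogenic adipocytes, while the 8 genes are known as genes of immune cells. BAT was sequenced whole, so fewer cells of a type and less RNA per cell cannot be told apart.

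MHC class II molecules are pairs of an alpha and a beta chain that carry peptides from ingested proteins to the cell surface, where CD4+ T cells read them. The chains are made mainly by dendritic cells, macrophages and B cells, and the invariant chain, encoded by Cd74, guides them to the compartment where peptide is loaded. Ciita encodes the transactivator that is required for their transcription, and it acts with RFX, CREB and NF-Y proteins bound to the X and Y boxes of the promoters. In B cells, Cd79a and Cd79b encode the signalling pair of the B cell receptor, and Ms4a1 encodes the surface protein CD20. Adipose tissue holds resident macrophages and dendritic cells, and lymph nodes lie in or near many of its depots.

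Promoter sequences are shown for the members that the RefSeq promoter table covers, because MHC class II genes share an element arrangement that the transactivator uses. The table held 3 of the 8 members, and the Cd79a window is not shown because it enters the transcribed part of that gene in GENCODE. The last 150 bases before the transcription start are given 5′ to 3′ on the gene's strand, from build GRCm38.p6, and capitals mark a match to a motif searched on both strands. The motifs were the CCAAT box of NF-Y (CCAAT, or ATTGG on the other strand), an X box core (ACNGATG), the octamer of B cell promoters (ATGCAAAT), the C/EBP-ATF element (TGATGNAA) and the CRE (TGACGTCA), the last chosen after these sequences were seen. None of the printed matches overlapped another.
H2-Aa, minus strand, chr17:34287824-34287973: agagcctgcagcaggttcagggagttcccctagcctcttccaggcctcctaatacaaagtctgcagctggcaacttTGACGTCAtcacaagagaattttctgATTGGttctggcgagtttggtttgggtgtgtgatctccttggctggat
H2-Eb1, plus strand, chr17:34305717-34305866: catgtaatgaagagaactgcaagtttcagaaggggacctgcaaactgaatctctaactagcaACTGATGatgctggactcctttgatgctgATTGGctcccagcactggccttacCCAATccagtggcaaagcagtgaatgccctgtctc

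Both MHC class II promoters held a CCAAT box, whose first base lay 48 bases before the start in H2-Aa and 59 and 35 bases before it in H2-Eb1. Among all 32843 promoter windows of this length, 24.5% held a CCAAT box. The X box core was found in H2-Eb1, 88 bases before the start, and in 4.92% of all windows, while these letters were not in the H2-Aa window. H2-Aa held a CRE 74 bases before the start, a motif in 1.36% of all windows. The C/EBP-ATF element, a motif that ATF4 can bind with C/EBP proteins, was not found in either window and was in 2.23% of all windows. The octamer was also not found in either, and was in 0.999% of all windows. Among 17 further genes of the MHC class II pathway with a promoter in the table, 10 held a CCAAT box, 4 held the X box core (H2-DMb1, H2-DMb2, H2-Eb2 and H2-Oa), 1 held the C/EBP-ATF element (H2-Ob), and 0 held the octamer or the CRE. A match gives the letters of a window and is not evidence of binding.

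Libraries held between 24698337 and 32452751 estimated counts. Atf4 had between 23.5 and 52.6 CPM (counts scaled to an equal library size) in ATF4 BKO mice and 226 and 286 CPM in WT mice. Xist counts were 4598 in ATF4 BKO replicate 1, although it is labelled male, and 0 to 7 in the remaining libraries. The tables are named with a prefix that no source explains: prefix 1 covers ATF4 BKO replicates 1 and 2 with WT replicate 1, and prefix 2 covers ATF4 BKO replicate 3 with WT replicate 2. WT replicates 1 and 2 stood far apart: 10 of 10 skeletal muscle markers were higher in WT replicate 2. Their summed levels were 77.3 and 1709 CPM, against 2.90 to 20.7 CPM in ATF4 BKO mice. All 10 also lay lower in every ATF4 BKO library than in both WT libraries, where the share of all genes was 10.6%. With the tests described below, edgeR called 0 of the 10, and DESeq2 called 6, next to 0.736% of all genes. In WT replicate 1, 5 of 5 red blood cell markers had their highest level of the 5 libraries, with a summed level of 3310 CPM against 1345 to 2027 CPM in the others. Their part in the results below was not tested, and values without each WT library are given for the 8 genes and for the gene lists.

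RNA of the class II chains and of the invariant chain was abundant in BAT, while RNA of Ciita and of the B cell genes was low. Levels between genes are compared here in TPM, which scale counts for transcript length and library size. Cd74 was the highest of the 8, with 190 ± 87.0 TPM (SD, n = 3) in ATF4 BKO mice and 150 ± 156 TPM (SD, n = 2) in WT mice, and its mean over the 5 libraries ranked 628 of 16450 genes tested. H2-Eb1, the beta chain of the molecule I-E, followed with 116 ± 50.5 and 101 ± 68.5 TPM, H2-Aa, the alpha chain of the molecule I-A, with 114 ± 60.2 and 91.3 ± 100 TPM, and H2-Ab1, its beta chain, with 90.5 ± 37.7 and 71.9 ± 76.2 TPM. Ciita had 1.82 ± 0.651 and 1.91 ± 2.08 TPM, between 0.0138 and 0.0218 of the H2-Aa level in the 5 libraries. Cd79b had 1.12 ± 0.460 and 0.948 ± 0.523 TPM, Cd79a had 0.832 ± 0.297 and 0.631 ± 0.288 TPM, and Ms4a1 had 0.228 ± 0.0675 and 0.214 ± 0.0731 TPM. By mean TPM, 94.9% of genes tested lay above Ms4a1 and 3.81% above Cd74.

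Neighbours in this order were often not separated. H2-Eb1 was above H2-Aa in 3 libraries and below it in 2, and Cd79b was above Cd79a in 4 libraries and below it in ATF4 BKO replicate 3. Ciita was above Cd79b in 4 libraries and below it in WT replicate 1. H2-Aa exceeded H2-Ab1 in 5 of 5 libraries, at between 1.13 and 1.37 times its level. Cd79a was above Ms4a1 in every library, and the lowest Cd79a level (0.427 TPM) lay above the highest Ms4a1 level (0.285 TPM).

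**Figure D1:**
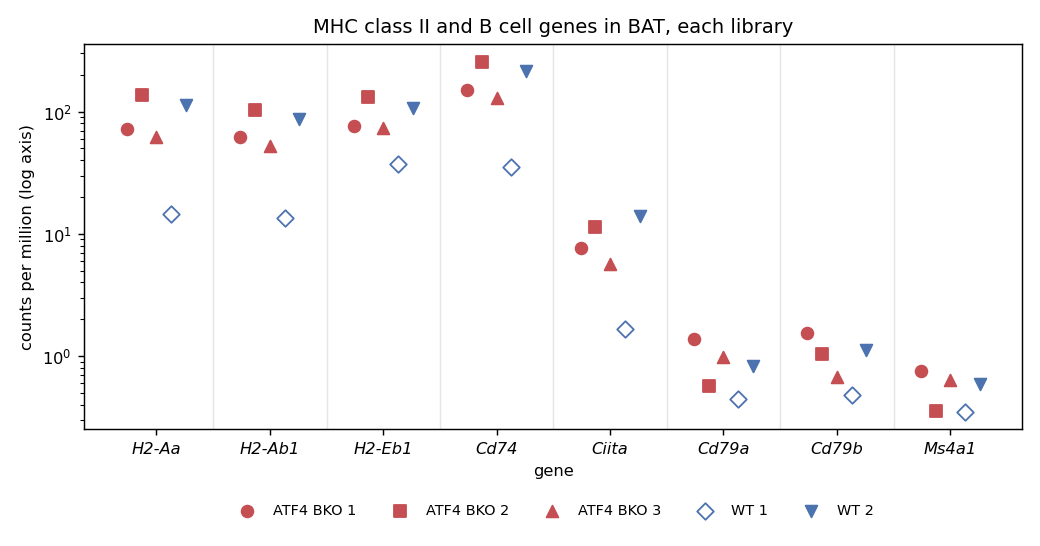
CPM of the 8 genes (log axis) in each library, with ATF4 BKO libraries as red filled points, WT replicate 1 as an open blue diamond and WT replicate 2 as a filled blue triangle. WT replicate 1 is the lowest point for every gene, and WT replicate 2 lies within or above the range of the ATF4 BKO libraries.

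None of the 8 genes differed between genotypes beyond the spread within them. In every case the ATF4 BKO and WT values overlapped, the fitted mean was higher in ATF4 BKO mice, and the difference was smaller than the gap between the WT mice. With edgeR's quasi-likelihood test and Benjamini-Hochberg adjustment over 16450 genes, 0 of the 8 genes passed an adjusted p of 0.05, where 0.00608% of all genes tested (1 gene) passed. DESeq2 called 0 of the 8 and 0.736% of all genes. At an unadjusted p under 0.05 from edgeR, the counts were 0 of 8 and 5.23% of all genes. Every ATF4 BKO library lay above both WT libraries for 0 of the 8 genes and below both for 0, where the shares of all genes were 8.95% and 10.6%. The median log2 fold change (ATF4 BKO over WT) of the 8 genes was 0.46, against 0.0077 over all genes tested. With 2 WT mice, an exact permutation test of a single gene cannot go below a one-sided p of 0.1.

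H2-Aa (ENSMUSG00000036594.15, chr17:34282744-34287823 in GRCm38), the alpha chain, had 72.3, 137 and 62.0 CPM in ATF4 BKO replicates 1, 2 and 3 and 14.7 and 113 CPM in WT replicates 1 and 2. ATF4 BKO replicate 2 and WT replicate 2 were the high libraries, and WT replicate 1 lay below all others. Its log2 fold change was 0.50 (SE 0.80, adjusted p = 0.963 from edgeR). The WT mice alone differed by 2.95 on the log2 scale, or 7.70-fold, and 1.19% of all genes tested differed as much between these mice. Over all genes, the median absolute difference between the WT mice was 0.27.

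H2-Ab1 (ENSMUSG00000073421.6, chr17:34257689-34269419), the beta chain that pairs with H2-Aa, had 62.5, 103 and 52.8 CPM in ATF4 BKO mice and 13.4 and 87.6 CPM in WT mice. The order of the libraries was that of H2-Aa. Its log2 fold change was 0.53 (SE 0.73, adjusted p = 0.952 from edgeR), and WT replicate 2 exceeded WT replicate 1 by 6.52-fold. Cd74 (ENSMUSG00000024610.15), the invariant chain, had 150, 257 and 129 CPM in ATF4 BKO mice and 35.4 and 217 CPM in WT mice, again in that order. Its log2 fold change was 0.50 (SE 0.72, adjusted p = 0.953 from edgeR), with a 6.12-fold difference between the WT mice.

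H2-Eb1 (ENSMUSG00000060586.11, chr17:34305867-34316674), the I-E beta chain, had 76.4, 132 and 72.9 CPM in ATF4 BKO mice and 37.4 and 107 CPM in WT mice. WT replicate 1 was again lowest, but by less than for the other chains: the WT mice differed by 2.86-fold. The log2 fold change was 0.38 (SE 0.48, adjusted p = 0.946 from edgeR). In C57Bl/6 mice the alpha chain partner is a pseudogene, H2-Ea-ps, and it had 0 counts in 4 libraries and 1 count in ATF4 BKO replicate 3. H2-Eb1 RNA was thus measured at levels near those of H2-Aa while RNA of its partner was at the floor.

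The ratios between the class II genes showed the same departure. The TPM ratio of Cd74 to H2-Aa was between 1.59 and 1.96 in the 5 libraries, and that of Cd74 to H2-Ab1 between 1.92 and 2.22, while the levels of these 3 genes varied from 7.25-fold to 8.97-fold between the lowest and the highest library. H2-Eb1 stood at 1.02, 0.955 and 1.19 times H2-Aa in ATF4 BKO mice, 0.920 times in WT replicate 2 and 2.56 times in WT replicate 1. Relative to H2-Ab1, it stood at 1.15, 1.31 and 1.39 times in ATF4 BKO mice, 1.19 times in WT replicate 2 and 2.90 times in WT replicate 1. WT replicate 1 was the sole library in which H2-Eb1 exceeded Cd74, with a Cd74 to H2-Eb1 ratio of 0.766 against 1.54 to 1.75 elsewhere. With 1 library showing it, this departure has no replicate and was not tested. Sequence shared with other genes was small, since 1.065% of the 31-base words of H2-Eb1 transcripts occur in another gene (H2-Ab1 and H2-Eb2). H2-Eb2 had between 4 and 29 counts, and Gm20513, on the opposite strand of H2-Eb1, had between 0 and 2 counts.

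**Figure D2:**
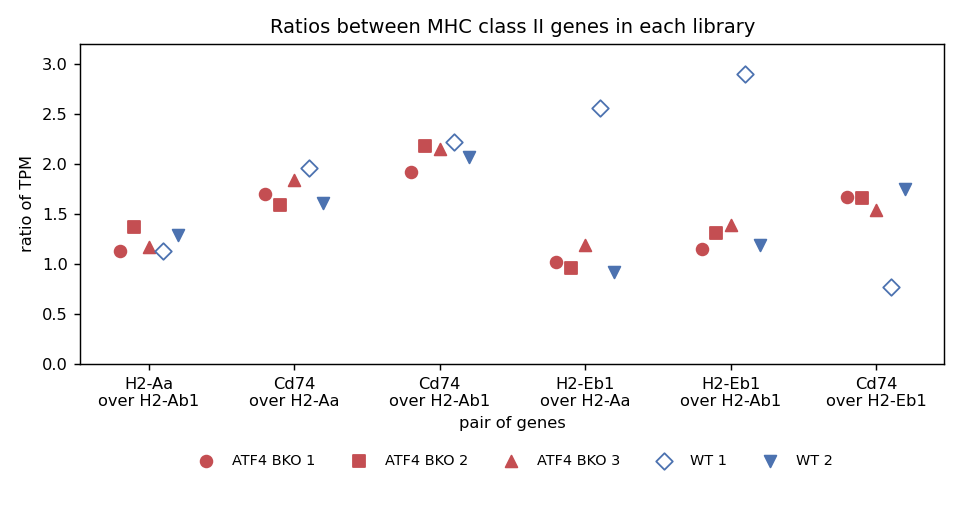
Ratio of TPM for 6 pairs of MHC class II genes in each library, on a linear axis from 0. The 3 pairs without H2-Eb1 stay close together, while in the 3 pairs with H2-Eb1 the open diamond of WT replicate 1 lies apart, at 2.56, 2.90 and 0.766.

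Each class II chain gene was counted mainly on 1 transcript. H2-Aa-201, a coding transcript of 5 exons, held 83.1% to 91.8% of H2-Aa counts, and H2-Aa-204, which has 4 exons, held 4.67% to 14.7%. H2-Ab1-201 held 73.5% to 85.3% of H2-Ab1 counts, and a shorter coding transcript of 889 bases held 10.3% to 22.7%. For H2-Eb1, 74.7% to 78.6% of counts were assigned to H2-Eb1-205, which the annotation lists under nonsense-mediated decay, and 8.52% to 13.6% to the coding H2-Eb1-203. The share of H2-Eb1-205 in WT replicate 1 was 74.7%, next to 75.2% in ATF4 BKO replicate 3. Kallisto divides reads among transcripts that share exons, so these shares are estimates.

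The invariant chain is made in a short and a long form, which differ by 1 exon. Cd74-202, of 9 exons, was 26.1%, 22.9% and 19.6% of the counts of Cd74-201 and Cd74-202 in ATF4 BKO mice, against 29.0% and 26.1% in WT mice. WT replicate 1 had the highest share (95% Clopper-Pearson interval 26.4% to 31.8%) and ATF4 BKO replicate 3 the lowest (18.3% to 20.9%). These intervals cover counting error only, and the genotypes met at ATF4 BKO replicate 1 and WT replicate 2.

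Ciita (ENSMUSG00000022504.10, chr16:10480059-10528418), the transactivator, had 7.68, 11.4 and 5.62 CPM in ATF4 BKO mice and 1.65 and 13.9 CPM in WT mice. WT replicate 2 was highest and WT replicate 1 lowest, so the WT values enclosed all 3 ATF4 BKO values. Its log2 fold change was 0.086 (SE 0.80, adjusted p = 0.991 from edgeR), and the WT mice differed by 8.13-fold, the widest gap of the 8 genes. Ciita has several promoters that are used in different cell types, and its transcripts start at different places. Ciita-201 held 65.9% of its counts in WT replicate 1, on 52 counts in all, and 81.5% to 88.1% in the other libraries. Ciita-205 held 7.74% to 10.3% in those libraries and 0 counts in WT replicate 1, and Ciita-202, annotated as a processed transcript, held 23.1% in WT replicate 1 and 0% to 1.56% elsewhere. Of its 31-base words, 2.77% occur elsewhere, most of them in Dexi, which overlaps Ciita on the other strand and had 8.05 to 10.2 CPM.

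Cd79a (ENSMUSG00000003379.7, chr7:24897381-24902197) had 31, 16 and 29 counts in ATF4 BKO replicates 1, 2 and 3 and 14 and 28 counts in WT replicates 1 and 2, which is 1.37, 0.569 and 0.976 CPM and 0.443 and 0.826 CPM. ATF4 BKO replicate 2, high for every class II gene, was low here and lay below WT replicate 2. The log2 fold change was 0.60 (SE 0.52, adjusted p = 0.936 from edgeR), the highest of the 8 genes. The lowest and highest libraries, WT replicate 1 and ATF4 BKO replicate 1, had 95% exact Poisson intervals of 0.242 to 0.743 CPM and 0.930 to 1.94 CPM. Of its 31-base words, 12.2% occur in Gm32220, which had 0 counts in every library.

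Cd79b (ENSMUSG00000040592.11, chr11:106311341-106314762) had 35, 29 and 20 counts in ATF4 BKO replicates 1, 2 and 3 and 15 and 38 counts in WT replicates 1 and 2, or 1.55, 1.03 and 0.673 CPM and 0.475 and 1.12 CPM. The groups overlapped, and the log2 fold change was 0.43 (SE 0.54, adjusted p = 0.945 from edgeR). Ms4a1 (ENSMUSG00000024673.9, chr19:11249675-11266241) had 17, 10 and 19 counts in ATF4 BKO replicates 1, 2 and 3 and 11 and 20 counts in WT replicates 1 and 2, or 0.751, 0.356 and 0.640 CPM and 0.348 and 0.590 CPM. Its lowest libraries, WT replicate 1 and ATF4 BKO replicate 2, had 0.348 and 0.356 CPM, and on the TPM scale ATF4 BKO replicate 2 was the lower. The log2 fold change was 0.30 (SE 0.50, adjusted p = 0.963 from edgeR). For Ms4a1 the intervals of all 5 libraries overlapped, and no pair of libraries was tested. Reads were counted without molecular identifiers, so the true error is wider than these intervals.

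**Figure D3:**
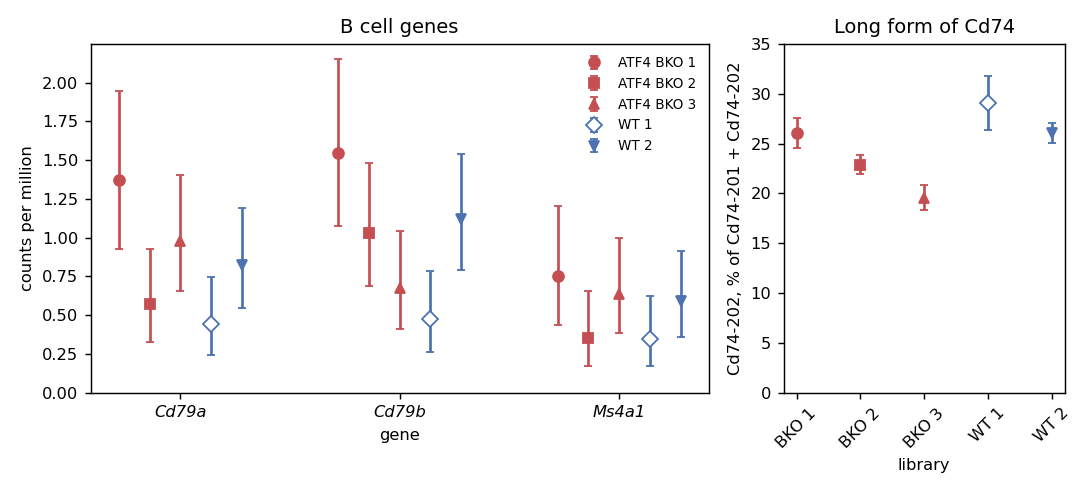
Left, CPM of Cd79a, Cd79b and Ms4a1 in each library with 95% exact Poisson intervals. Right, share of Cd74-202 among Cd74-201 and Cd74-202 counts with 95% Clopper-Pearson intervals, lowest in ATF4 BKO replicate 3 at 19.6% and highest in WT replicate 1 at 29.0%.

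All 8 genes had their lowest CPM of the 5 libraries in WT replicate 1, a rank that 25.3% of all genes tested had. The 8 genes are not independent of each other, so this count is a description of 1 library. WT replicate 2 exceeded WT replicate 1 for all 8, by a median of 2.06 on the log2 scale. The direction between genotypes turned on which WT library was used. Without WT replicate 1, the median log2 fold change of the 8 genes was -0.22, and 7 of the 8 genes were lower in ATF4 BKO mice, with Cd79a at 0.24 the exception. Without WT replicate 2, the median was 1.80 and the values ran from 0.72 for Ms4a1 to 2.60 for H2-Aa. Within prefix 1 (2 ATF4 BKO mice and WT replicate 1) the median was 1.94, and within prefix 2 (1 mouse of each genotype) it was -0.71. No fit that left out a library called any of the 8 genes.

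**Figure D4:**
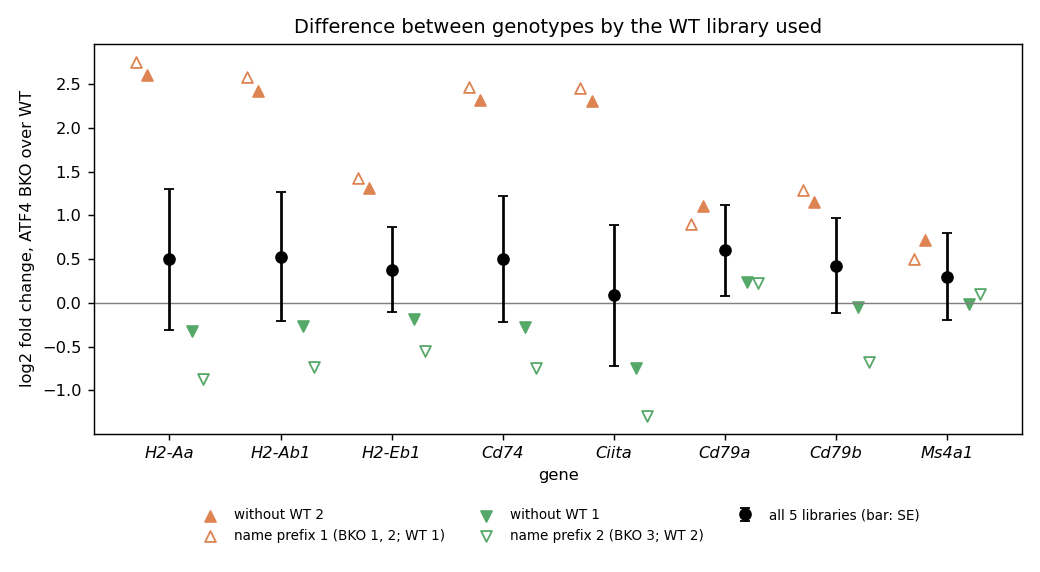
Log2 fold change of each gene, ATF4 BKO over WT, with all 5 libraries (black, bar is the SE), without 1 WT library (filled triangles) and within a prefix (open triangles). Values without WT replicate 2 lie above 0 for all 8 genes, and values without WT replicate 1 lie below 0 for 7 of them.

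Among the ATF4 BKO mice, the 5 class II genes spread less than between the WT mice. Their log2 range over the 3 mice was between 0.86 for H2-Eb1 and 1.14 for H2-Aa, where the median range of all genes tested was 0.45. For H2-Aa, 14.2% of all genes had a range as wide in these mice, and for H2-Eb1 23.0%. ATF4 BKO replicate 2 was the highest ATF4 BKO library for all 5 class II genes, and ATF4 BKO replicate 1 was the highest for Cd79a, Cd79b and Ms4a1. The order of the mice was thus not the same for class II and B cell genes.

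The genes whose profile over the 5 libraries was nearest to the mean of H2-Aa, H2-Ab1, H2-Eb1 and Cd74 were Cyth4, Selplg, Gcnt1, Map4k1 and Ptprc, among 12619 genes with a mean of at least 50 counts. Their root mean square difference from that profile was between 0.0746 and 0.0818 log2 units, where the profile itself had a root mean square of 0.948. Ptprc, which encodes the leukocyte antigen CD45, had 23.6, 38.3 and 21.6 CPM in ATF4 BKO mice and 5.95 and 37.2 CPM in WT mice. The nearest to the mean of Cd79a, Cd79b and Ms4a1 were Insig1, Filip1, Ralgps2, H2-Q10 and Rbm47, at 0.113 to 0.149 log2 units from a profile with a root mean square of 0.446. These 5 lie less close in proportion, and the profile they match rests on between 10 and 38 counts per gene and library.

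Other genes of the MHC class II pathway also tended to be lowest in WT replicate 1. Of 23 on the list, 21 were tested, 0 were called by edgeR or DESeq2, 16 had a fold change above 0 and 5 below, and the median log2 fold change was 0.34. WT replicate 1 was the lowest library for 15 of the 21. The direction turned on the WT library, since the median was -0.10 without WT replicate 1 and 1.01 without WT replicate 2, and it was 0.10 without ATF4 BKO replicate 2. Among the proteases, Ctss (cathepsin S, which trims the invariant chain) had 139, 310 and 104 CPM in ATF4 BKO mice and 17.2 and 244 CPM in WT mice. Its order of libraries was that of H2-Aa. Ctsl (cathepsin L) had 166, 389 and 214 CPM in ATF4 BKO mice and 191 and 212 CPM in WT mice, so that WT replicate 1 did not stand apart. Lgmn, an asparagine endopeptidase, had 123, 235 and 112 CPM in ATF4 BKO mice and 76.5 and 181 CPM in WT mice.

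The largest fold changes of that list belonged to H2-DMb2, a beta chain of the peptide editor DM, with a log2 fold change of 0.73 (SE 0.81), and H2-Eb2, with 0.66 (SE 0.79), and their adjusted p from edgeR was 0.942 each. H2-DMb2 had 2.30, 2.56 and 1.89 CPM in ATF4 BKO mice and 0.253 and 2.45 CPM in WT mice, and 36.6% of its 31-base words occur in other genes, mainly H2-DMb1, so its counts are uncertain. Rfxap, a subunit of the RFX complex that binds the X box, was the sole gene of the list whose groups did not overlap in CPM, with 8.21, 10.6 and 8.99 CPM in ATF4 BKO mice against 7.44 and 7.88 CPM in WT mice (log2 fold change 0.28, SE 0.20, adjusted p = 0.925 from edgeR). That is 1 of 21 genes, where the share of all genes was 8.95%. On the TPM scale the Rfxap groups overlapped, with 15.5, 22.9 and 18.3 TPM in ATF4 BKO mice and 14.2 and 19.5 TPM in WT mice.

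B cell genes other than the 3 members were mostly low. Of 27 listed, 20 were tested, 0 were called, 16 had a fold change above 0, and the median log2 fold change was 0.25. WT replicate 1 was the lowest library for 12 of 20. The median was -0.062 without WT replicate 1, 0.65 without WT replicate 2 and 0.12 without ATF4 BKO replicate 2. The highest by TPM were Ighm, the heavy chain of IgM, with 9.19 to 10.8 CPM in ATF4 BKO mice and 4.11 and 15.4 CPM in WT mice, and Cd38 and Cd37, which other leukocytes also express. In 4 of the 20 genes, next to 8.95% of all genes tested, every ATF4 BKO library lay above both WT libraries by CPM, among them Fcmr, Fcrla and Igkc. Igkc, the kappa light chain, had 2.78, 1.78 and 1.85 CPM in ATF4 BKO mice and 1.52 and 1.21 CPM in WT mice. Fcrla had the largest fold change of the list, with 0.486, 0.854 and 0.370 CPM against 0.0949 and 0.266 CPM (log2 fold change 1.63, SE 0.66, adjusted p = 0.911 from edgeR). The 0.0949 CPM in WT replicate 1 corresponds to 3 counts. On the TPM scale the Fcrla groups overlapped, with 0.785, 1.21 and 0.354 TPM in ATF4 BKO mice and 0.126 and 0.719 TPM in WT mice. For none of these 4 genes did the adjusted p pass the threshold. Ly6d had the widest change in the other direction (log2 fold change -1.28, SE 0.69, adjusted p = 0.912 from edgeR). It had 0.574, 0.605 and 0.269 CPM in ATF4 BKO mice and 1.90 and 0.443 CPM in WT mice. WT replicate 2 thus lay within the ATF4 BKO range.

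The B cell genes that could not be tested included Pou2af1 with 3 to 9 counts, Cr2 with 3 to 8, Blk with 4 to 11 and Cxcr5 with 5 to 9. Of the plasma cell markers, 4 of 9 were tested and their median log2 fold change was 0.60 (-0.091 without ATF4 BKO replicate 2, 0.46 and 0.40 without WT replicates 1 and 2, and 0.15 on the log2(TPM + 1) scale), while Ighg2c had 0 counts in every library. Of the stromal markers of lymph nodes, Glycam1 and Chst4, genes of the specialised venules of a node, had 0 counts in all 5, where 3 counts correspond to between 0.0885 and 0.132 CPM. Madcam1 had 2 to 15 counts and Il7 had 1 to 11, both below the count filter. Ccl19 had 0.348 to 2.24 CPM and Cxcl13 had 0.265 to 2.92 CPM. Of 7 listed, 3 were tested, 0 were called, and the median log2 fold change was 0.54. That median was -0.13 without ATF4 BKO replicate 2, -0.0062 without WT replicate 1 and 1.03 without WT replicate 2. Ccl21a, a chemokine of lymph node stroma and lymphatic vessels, had 7.07, 2.06 and 4.14 CPM in ATF4 BKO mice and 2.91 and 3.16 CPM in WT mice.

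Markers of other immune cells were also mostly lowest in WT replicate 1. Of 10 dendritic cell markers, 9 were lowest in WT replicate 1 and their median log2 fold change was 0.54, which was -0.045 without WT replicate 1, 2.06 without WT replicate 2 and 0.21 without ATF4 BKO replicate 2. Their summed level was 66.2 to 95.6 CPM in ATF4 BKO mice and 37.2 and 84.9 CPM in WT mice. Irf8, a transcription factor of dendritic cell development, had 12.5 to 28.1 CPM in ATF4 BKO mice and 3.39 and 23.0 CPM in WT mice, and Itgax, which encodes CD11c, had 7.77, 16.7 and 10.7 CPM against 2.63 and 10.7 CPM. Of 14 macrophage markers, 9 were lowest in WT replicate 1, with summed levels of 590 to 1551 CPM in ATF4 BKO mice and 241 and 1251 CPM in WT mice. Over these markers the median log2 fold change was 0.38, with -0.24 without WT replicate 1, 1.35 without WT replicate 2, -0.017 without ATF4 BKO replicate 2 and 0.70 without ATF4 BKO replicate 3. Lyz2, the macrophage lysozyme, had 531, 835 and 320 CPM in ATF4 BKO mice and 89.3 and 739 CPM in WT mice, and its order of libraries was that of H2-Aa. Cd68 had 45.3, 138 and 44.9 CPM against 29.7 and 88.6 CPM, and C1qb, a chain of complement C1q, had 51.5, 91.1 and 26.8 CPM against 15.6 and 68.2 CPM. Of 14 T and NK cell markers, 13 were lowest in WT replicate 1, with summed levels of 8.12 to 10.4 CPM in ATF4 BKO mice and 3.58 and 11.2 CPM in WT mice. Their summed level was lowest among the ATF4 BKO mice in replicate 2, where the class II genes were highest, and their median log2 fold change was 0.43 (-0.26 without WT replicate 1 and 1.85 without WT replicate 2). Cd2, an adhesion molecule of T and NK cells, was the sole one of these 14 whose groups did not overlap, with 1.15, 0.641 and 1.01 CPM against 0.190 and 0.413 CPM (log2 fold change 1.60, SE 0.52, adjusted p = 0.911 from edgeR). That is 1 of 14 genes, where every ATF4 BKO library lay above both WT libraries for 8.95% of all genes. In each of these 3 lists 0 genes were called by edgeR or DESeq2. No tested marker of the dendritic cell and macrophage lists was at 0 in any library. The part of these markers in the class II levels was not tested.

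Neutrophil markers did not share this pattern. Of 5 tested, 1 was lowest in WT replicate 1, their median log2 fold change was 0.15 (1.42 without WT replicate 1, -0.18 without WT replicate 2, 0.43 without ATF4 BKO replicate 2 and -0.058 without ATF4 BKO replicate 3), and S100a9 had 3.49, 1.28 and 5.25 CPM in ATF4 BKO mice and 5.16 and 1.27 CPM in WT mice. Of 10 brown adipocyte markers, 5 were lowest in WT replicate 1 and the median log2 fold change was 0.17 (0.0027 without WT replicate 1, 0.44 without WT replicate 2, 0.064 without ATF4 BKO replicate 3 and -0.028 on both TPM scales), with Ucp1, the uncoupling protein that defines the tissue, between 9762 and 13076 CPM in all 5 libraries. Of 6 endothelial markers, 3 were lowest in WT replicate 1 and the median was 0.37 (0.30 and 0.51 without WT replicates 1 and 2, and 0.18 on both TPM scales). No gene of these 3 lists was called by edgeR or DESeq2.

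By their medians, MHC class I genes and interferon gamma response genes varied less between the WT mice than the 8 genes did. Their median differences were 0.57 and 0.93 on the log2 scale, against 2.06 for the 8 genes. The class II genes among the 8 differed by 1.52 to 3.02. Cd79a, Cd79b and Ms4a1 differed by 0.81, 1.13 and 0.66, and so did not stand apart from the interferon gamma response genes. Of 13 class I genes, 8 were lowest in WT replicate 1, 0 were called, and the median log2 fold change was 0.055, which was -0.25 without WT replicate 1, 0.34 without WT replicate 2 and -0.033 without ATF4 BKO replicate 1. It was also below 0 with library totals alone (-0.054) and on both TPM scales (-0.23 and -0.25). B2m, the light chain of class I molecules, had 300, 317 and 246 CPM in ATF4 BKO mice and 169 and 356 CPM in WT mice, and H2-K1 had 343, 333 and 291 CPM against 252 and 368 CPM. Of 17 interferon gamma response genes tested, 13 had a fold change below 0, 0 were called, and the median log2 fold change was -0.25. The median was -0.56 without WT replicate 1, 0.41 without WT replicate 2, -0.13 without ATF4 BKO replicate 2 and -0.0086 without ATF4 BKO replicate 3. Ifngr2, a chain of the interferon gamma receptor, was the sole gene of that list whose groups did not overlap, with 23.2, 24.2 and 16.9 CPM against 31.4 and 29.0 CPM (log2 fold change -0.49, SE 0.19, adjusted p = 0.911 from edgeR). That is 1 of 17 genes, where every ATF4 BKO library lay below both WT libraries for 10.6% of all genes. Ifng itself had 0 to 2 counts.

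**Figure D5:**
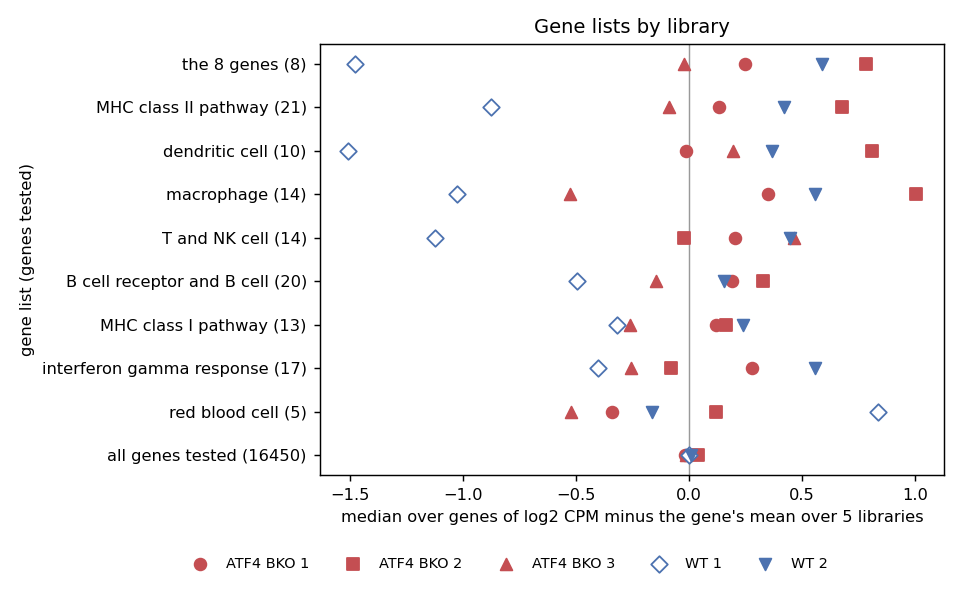
For each gene list, the median over its tested genes of log2 CPM minus the gene's mean over the 5 libraries, 1 point per library. WT replicate 1 (open diamond) lies lowest for the 8 genes at -1.48, for the dendritic cell list at -1.51 and for the T and NK cell list at -1.13. It is also lowest for the macrophage (-1.03), MHC class II pathway (-0.87), B cell (-0.50), interferon gamma response (-0.40) and MHC class I (-0.32) lists. It lies highest for the red blood cell list at 0.83, while the median of all genes tested lies near 0 in every library.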

How the data were processed

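BAT RNA was sequenced from 5 mice with a stranded mRNA kit. The authors ran Kallisto 0.45.0 and deposited estimated counts and TPM per transcript, without normalization between mice. Whether strand was used and which transcript annotation was indexed is not given in the sources used here. Of 141450 transcripts, 138191 matched GENCODE M21 (GRCm38), and the rest, 1.16% to 1.29% of counts, were left out. Estimated counts were summed per gene and rounded.

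The 16450 genes that reached 10 counts in 2 or more libraries entered edgeR 4.0.16 (R 4.3.3), with TMM scaling, the quasi-likelihood test and a Benjamini-Hochberg threshold of 0.05. DESeq2 1.42.0, limma 3.58.1 on log2(TPM + 1) and log2(TPM + 0.1), other scalings and filters, blocks and left-out libraries were alternatives. The main edgeR fit, DESeq2 and limma with a pseudocount of 1 were tested on simulated data, and the other alternatives were not. The common dispersion was 0.0758, with 3 residual degrees of freedom. CPM use TMM-scaled totals, and log2 CPM a prior count of 2.

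The members and lists were chosen with earlier results of these data known. Genes named from a list were the 3 highest by mean TPM, the 2 with the largest absolute fold change and those without overlap between genotypes. Outside the class II pathway and B cell lists, not every such gene is printed. Some listed genes are counted in their lists and not reported here by name. Transcripts were named at 10% of their gene. Profiles were compared by the root mean square difference of centred log2 CPM. Counts of any 2 libraries differed beyond sampling noise (chi-square per degree of freedom 33.5 or more), so no library was a copy of another. This cannot show that the libraries came from different mice, and each was treated as a sample. The labels do not say more than that samples are separate, and p-values measure the spread between these samples.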

Additional observations from a re-analysis of the deposited data

How the results depend on the processing

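Over 13 alternatives, 0 of the 8 genes were called in any, and their adjusted p ranged from 0.19 to 0.9999. The count of genes called over the whole table was 1 with edgeR, 121 with DESeq2, 8 when genes with 1 count were kept, 0 with limma at a TPM pseudocount of 1 and 2 at a pseudocount of 0.1, and 0 with the prefix as a block. Leaving out 1 library at a time gave between 0 and 23 called genes, the latter without WT replicate 1, and a median log2 fold change of the 8 genes between -0.22 (without WT replicate 1) and 1.80 (without WT replicate 2). Without WT replicate 1, the log2 fold changes were -0.32 for H2-Aa, -0.26 for H2-Ab1, -0.18 for H2-Eb1, -0.27 for Cd74, -0.74 for Ciita, -0.047 for Cd79b and -0.011 for Ms4a1, while Cd79a kept its direction at 0.24. Without WT replicate 2, they were 2.60 for H2-Aa, 2.42 for H2-Ab1, 1.31 for H2-Eb1, 2.32 for Cd74, 2.30 for Ciita, 1.11 for Cd79a, 1.16 for Cd79b and 0.72 for Ms4a1. Ciita also turned to -0.018 with library totals alone and to -0.20 without ATF4 BKO replicate 2. The causes were not tested. Over all genes the median was 0.0077, and it was -0.099 with library totals alone and -0.12 and -0.17 on the TPM scales.

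A replicate block called 0 genes over the whole table, 0 of the 8 among them, and left 711 genes at an unadjusted p under 0.05. The deviations of same-numbered libraries from their group means correlated at 0.0473 in one pair and 0.2 in the other. With 2 WT libraries the WT deviations mirror each other, so these values cannot decide whether the numbers pair the mice.

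Depth limits the B cell genes, which had 10 to 38 counts per library, and 1 WT pair sets the spread within WT.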
